A study of Mus musculus with 68 samples.

Results

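These data hold 89 genes, of 30142 measured, that moved in opposite directions 2 h after oestradiol (E2) and 2 h after insulin-like growth factor 1 (IGF1) in the uterus of wild-type mice. The members were chosen by their measured values. For each gene the vehicle mean was subtracted from the treatment mean in each of 3 sets of wild-type mice, and the 3 differences were averaged. A gene was kept where E2 at 2 h was at least 0.5 above vehicle and IGF1 at 2 h at least 0.5 below it, or the reverse, on the log2 intensity scale. In 49 genes E2 was the higher and IGF1 the lower hormone (E2-up/IGF1-down genes), and in 40 genes the signs were the other way round (E2-down/IGF1-up genes). The wild-type differences at 2 h are therefore given as a description, with no test.

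Uterine RNA was measured on 68 microarrays from ovariectomized mice, which lack ovarian hormones. The wild types were C57Bl6 mice from Charles River and the wild-type littermates of a pair of lines without oestrogen receptor alpha, the product of Esr1. Ex3aERKO mice are null for Esr1. ERaUtcKO mice (Esr1f/f;PgrCre+) lose the floxed Esr1 allele where Cre is made from the progesterone receptor promoter. Mice received vehicle (saline), 250 ng of E2, or IGF1, either as 50 ug injected or from an implanted pump holding 0.5 mg/ml, and the labels do not say which mice had the pump. Tissue was taken at 2 h or 24 h after E2 or IGF1 but only at 24 h after vehicle, so each 2 h difference from vehicle also spans a difference in time. The arrays form 25 groups of 3 arrays or, in 7 groups, of 2, because the authors left out 1 replicate of those 7 as an outlier. The labels do not say that arrays of a group came from separate animals, so p-values measure the spread between these samples, which may be technical.

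E2 acts in the uterus mainly through oestrogen receptor alpha, a nuclear receptor that binds DNA and recruits cofactors, and it drives growth of the epithelium and stroma. IGF1 acts through a receptor tyrosine kinase that activates AKT and MAP kinases. AKT phosphorylates the FOXO transcription factors and keeps them out of the nucleus. E2 raises uterine IGF1 production, and IGF1 signalling can also activate oestrogen receptor alpha without its ligand, so the responses to these hormones overlap widely in this tissue.

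Array medians ran from 6.43 to 6.60 in the C57Bl6 set, from 5.82 to 6.15 in the Ex3aERKO set and from 6.26 to 6.62 in the ERaUtcKO set, and all differences were taken within a set. Arrays of 1 group correlated at 0.984 to 0.997 over genes. Esr1 was lower on every knockout array than on every littermate array. It ran from 9.38 to 10.3 in Ex3aERKO knockouts against 11.4 to 12.7 in their littermates, and from 10.3 to 11.1 in ERaUtcKO knockouts against 11.7 to 12.3. The tissue label was borne by smooth muscle (9 genes outside the members, mean level 12.1 to 15.3 over arrays), stromal (8 genes, 10.7 to 13.8) and epithelial markers (11 genes, 8.93 to 11.7). The mean of 8 adipocyte markers ran from 6.22 to 11.5, and 4 arrays stood above 10. These were 1 array each of IGF1 at 2 h in Ex3aERKO littermates (11.5), IGF1 at 2 h in Ex3aERKO knockouts (10.3), E2 at 2 h in ERaUtcKO littermates (10.4) and E2 at 2 h in ERaUtcKO knockouts (10.2). Without these 4 arrays the rule gave 95 genes, and 83 of them were members with all arrays. The members lost had a 2 h difference short of 0.5. After E2 these were Smtn (-0.476), Car2 (-0.486), Il1r1 (-0.434) and Sec14l1 (-0.499). After IGF1 they were Mir1a-1hg (-0.451) and Mir125b-1 (0.484).

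Of the 89 members, 73 are protein coding, 7 are pseudogenes and 2 are transcribed pseudogenes. The others are 3 long noncoding RNAs, 2 small nuclear RNAs, 1 microRNA gene (Mir125b-1) and 1 antisense RNA (Msx1os), whose signal may include reads of neighbouring or host transcripts. Each member was measured by 1 probe set. Mean levels ran from 5.91 to 14.0, with a median of 9.16 in E2-up/IGF1-down genes and 10.2 in E2-down/IGF1-up genes, against 6.62 over all genes. Over all genes, 9.11% had an E2 difference of at least 0.5 at 2 h and 8.74% one of -0.5 or less. For IGF1 the shares were 8.14% and 6.86%. The members just inside the limits were Gm5424 and Fahd1 (IGF1 at -0.51), Il1r1 (E2 at -0.50) and Emp3 (IGF1 at 0.50). Just outside were Lrrn3 (IGF1 at -0.498), Trim8 (E2 at -0.4997) and Traf5 (IGF1 at 0.499).

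The signs were opposed in each of the 3 mouse sets for 86 of the 89 genes, and both differences reached 0.5 in each set for 34. The rule took the mean of these same 3 sets, so agreement between them follows in part from the selection. The exceptions to opposed signs were Usp18, Gm5424 and Mir125b-1. In E2-up/IGF1-down genes the E2 difference had a median of 1.03 (range 0.53 to 3.97) and the IGF1 difference a median of -0.73 (range -2.40 to -0.51). E2 moved the gene further than IGF1 in 37 of these 49 genes. In E2-down/IGF1-up genes the medians were -0.72 for E2 (range -1.89 to -0.50) and 0.74 for IGF1 (range 0.50 to 3.57), and E2 moved the gene further in 16 of 40. All comparisons with vehicle share the vehicle arrays of their set. The plot of wild-type differences shows each gene with its 3 set values.

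**Figure D1:**
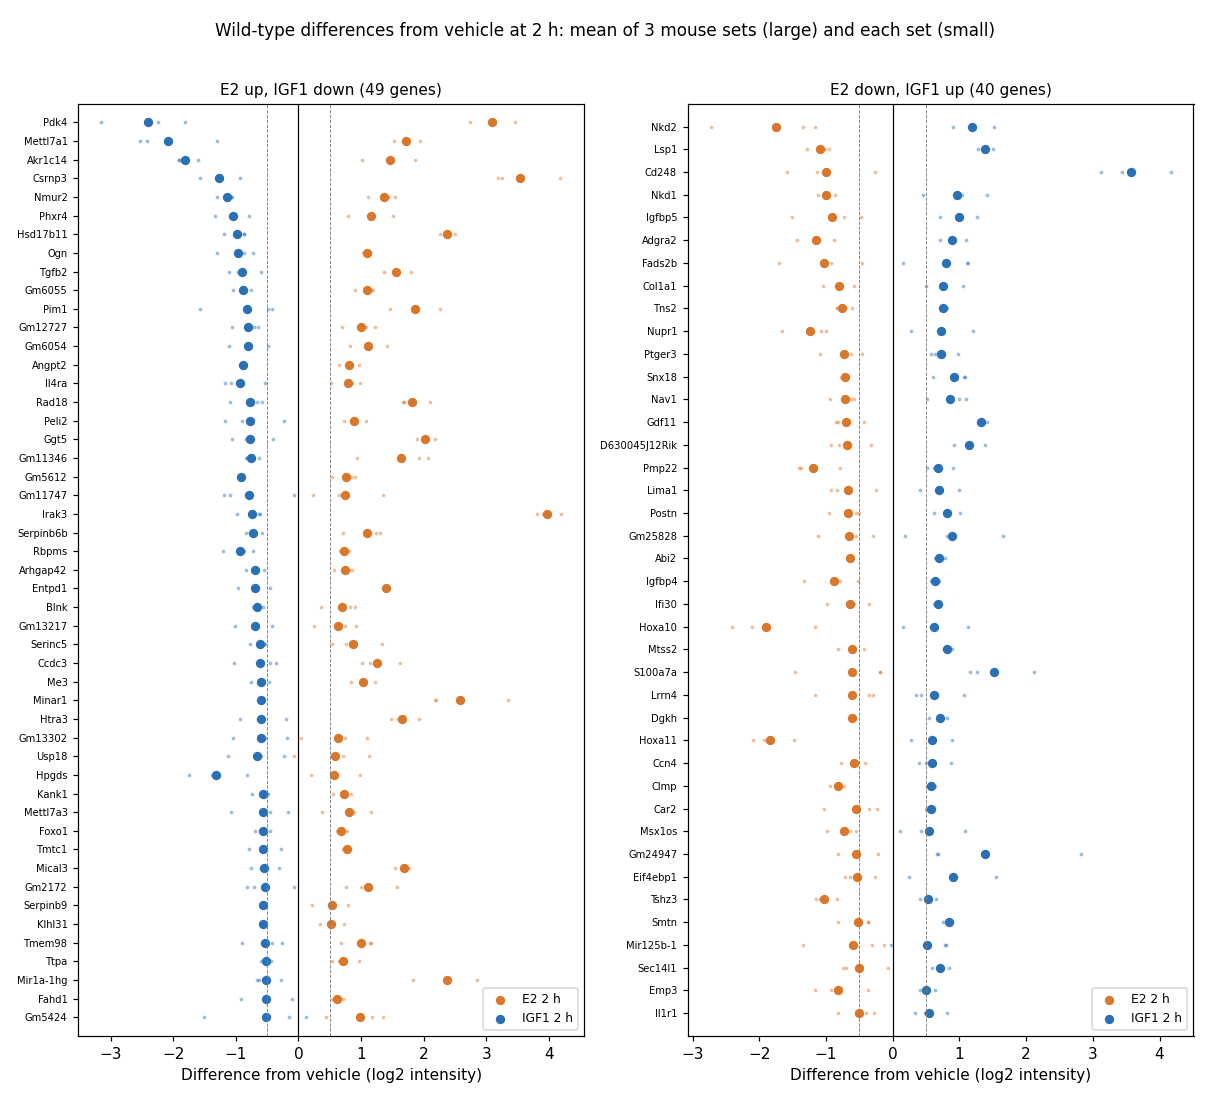
Difference from vehicle at 2 h in wild types (x axis, log2 intensity) for each of the 89 genes (y axis), after E2 in orange and IGF1 in blue. Large points are means of the 3 mouse sets, small points the single sets and dashed lines the limits of 0.5. E2 differences reach 3.97 in Irak3 and IGF1 differences reach 3.57 in Cd248.

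By the smaller of both differences, Pdk4, Mettl7a1, Akr1c14 and Csrnp3 led the E2-up/IGF1-down genes. Pdk4, a kinase that switches off pyruvate dehydrogenase and so spares glucose, had differences of 3.10 after E2 and -2.40 after IGF1. In C57Bl6 mice Pdk4 stood at 10.06, 10.34 and 10.18 after vehicle, at 13.61, 13.52 and 13.80 after E2 and at 7.12 and 6.97 after IGF1. The 3 treatments did not overlap there. In Ex3aERKO littermates it stood at 9.13 and 9.46 after vehicle, at 12.45, 12.28 and 12.45 after E2 and at 6.58, 9.96 and 5.92 after IGF1. The IGF1 array at 9.96 lay above vehicle and was the array with the highest adipocyte markers (mean 11.5). Without the 4 arrays named above, the Pdk4 differences were 3.11 and -2.81. In ERaUtcKO littermates the groups did not overlap either, with 9.57, 9.75 and 10.38 after vehicle, 12.94, 12.52 and 12.44 after E2 and 8.54 and 6.77 after IGF1. Separation of wild-type arrays at 2 h, here and for other members, follows in part from the choice of members.

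Mettl7a1, a methyltransferase-like protein of lipid droplets and the endoplasmic reticulum, differed by 1.71 after E2 and -2.08 after IGF1. Akr1c14, an aldo-keto reductase that acts on steroids, differed by 1.46 and -1.81. Hsd17b11, a short-chain dehydrogenase that acts on steroids, differed by 2.37 and -0.98, and Me3, the mitochondrial NADP-dependent malic enzyme, by 1.03 and -0.60. Akr1c14 arrays of C57Bl6 mice stood at 10.80, 10.75 and 10.52 after vehicle, 12.03, 12.52 and 12.03 after E2 and 8.77 and 8.78 after IGF1. No array of 1 treatment reached the range of another in that set.

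Csrnp3, a nuclear protein with transcription-activating activity, differed by 3.54 after E2 and -1.27 after IGF1. It stood at 8.03, 8.45 and 8.24 after vehicle, 12.37, 12.60 and 12.31 after E2 and 7.01 and 6.85 after IGF1 in C57Bl6 mice, without overlap. Irak3, an inhibitor of Toll-like receptor signalling, had the largest E2 difference of all members, 3.97, against -0.74 after IGF1. Pim1, a serine/threonine kinase induced by cytokines, differed by 1.86 and -0.83, and Foxo1, itself a FOXO factor, by 0.67 and -0.56. Peli2, a ubiquitin ligase of interleukin-1 and Toll-like receptor signalling, differed by 0.89 and -0.77, Il4ra, the interleukin-4 receptor alpha chain, by 0.78 and -0.93, and Rad18, a ubiquitin ligase of DNA damage tolerance, by 1.82 and -0.78. Among secreted proteins and receptors, the growth factor Tgfb2 differed by 1.56 and -0.89, the vascular ligand Angpt2 by 0.80 and -0.89, the matrix proteoglycan Ogn by 1.09 and -0.97 and the neuromedin U receptor Nmur2 by 1.37 and -1.14. Hpgds, which makes prostaglandin D, differed by 0.58 and -1.32.

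Promoters of 61 members were found in the RefSeq table of assembly GRCm38.p6 (78 windows of 300 bases around a gene start). The FOXO site TGTTTAC, searched on both strands, occurred in 3.65% of all 32851 windows. It was in 3 of 40 windows of E2-up/IGF1-down genes and in 0 of 38 of E2-down/IGF1-up genes. The 3 windows are shown because FOXO factors are the best known nuclear targets of IGF1 signalling. They belong to Csrnp3 (chr2:65931615-65931914, plus strand), Pim1 (chr17:29492835-29493134, plus strand) and Peli2 (chr14:48120619-48120918, plus strand). Capitals mark the FOXO match, which reads on the opposite strand in Csrnp3 and Pim1. A match is a description of letters and not a shown binding site.
Csrnp3: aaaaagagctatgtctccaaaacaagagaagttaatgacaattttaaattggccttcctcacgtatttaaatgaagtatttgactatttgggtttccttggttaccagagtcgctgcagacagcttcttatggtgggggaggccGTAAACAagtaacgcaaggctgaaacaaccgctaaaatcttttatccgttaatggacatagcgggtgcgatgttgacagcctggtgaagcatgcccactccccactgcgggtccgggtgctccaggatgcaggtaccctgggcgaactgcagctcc
Pim1: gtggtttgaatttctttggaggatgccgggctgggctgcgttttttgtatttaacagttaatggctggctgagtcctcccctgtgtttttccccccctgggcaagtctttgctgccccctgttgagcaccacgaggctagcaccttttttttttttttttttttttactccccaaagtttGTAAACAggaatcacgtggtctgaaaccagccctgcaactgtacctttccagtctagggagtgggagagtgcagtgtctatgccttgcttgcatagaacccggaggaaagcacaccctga
Peli2: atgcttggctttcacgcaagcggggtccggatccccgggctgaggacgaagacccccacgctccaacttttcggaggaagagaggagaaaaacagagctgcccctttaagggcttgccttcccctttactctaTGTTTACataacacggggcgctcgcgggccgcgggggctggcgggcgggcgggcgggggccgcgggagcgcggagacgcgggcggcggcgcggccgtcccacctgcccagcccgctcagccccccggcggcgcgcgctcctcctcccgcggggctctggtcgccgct

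The palindromic oestrogen response element was in 0.0700% of all windows, the glucocorticoid response element in 0.475% and the cAMP response element TGACGTCA in 1.79%, and none of the 78 member windows held any of them. The single AGGTCA site of nuclear receptors was in 16.3% of all windows and in 3 and 4 member windows of the E2-up/IGF1-down and E2-down/IGF1-up genes. The AP-1 site TGANTCA (7.81% of all windows) was in 0 and 1, the E-box CACGTG (7.15%) in 4 and 6, and the GC box GGGCGG (35.7%) in 18 and 17. The ETS site CCGGAAG (8.86%) was in 1 and 1, and the sterol response element TCACNCCAC (1.24%) in 2 and 0. Both strands were searched for each, and an AGGTCA match can overlap a full oestrogen response element.

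The E2-down/IGF1-up genes included inhibitors of WNT signalling, binding proteins of IGF1, homeobox factors, genes of stroma and the smooth muscle marker Smtn. Other genes of these kinds are on lists described below. Every gene opposed past the limits of the rule had been taken out of these lists as a member. Whether genes of these kinds share both directions can therefore not be judged from the rest, whose medians are a description. The median differences of these other genes after E2 and IGF1 were -0.13 and -0.06 (WNT pathway) and -0.30 and -0.16 (IGF and insulin axis). They were -0.42 and -0.04 for homeobox genes, -0.97 and -0.20 for stromal markers and 0.25 and 0.60 for smooth muscle markers. Nkd2 and Nkd1 bind Dishevelled and damp WNT signalling. Nkd2 differed by -1.74 after E2 and 1.19 after IGF1, and Nkd1 by -0.9969 and 0.97. In C57Bl6 mice Nkd2 stood at 11.30, 11.27 and 11.38 after vehicle, 8.69, 8.56 and 8.51 after E2 and 12.06 and 12.37 after IGF1. The treatments did not overlap for Nkd2 in any of the 3 sets.

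Cd248 (endosialin), a surface protein of fibroblasts and pericytes, had the largest IGF1 difference of all members, 3.57, against -0.9981 after E2. In C57Bl6 mice it stood at 11.48, 10.86 and 10.62 after vehicle, 9.17, 9.56 and 9.45 after E2 and 14.53 and 14.30 after IGF1. After E2, Cd248 overlapped vehicle in ERaUtcKO littermates, with 8.29, 7.55 and 8.002 against 7.49, 8.36 and 8.79. Hoxa10 and Hoxa11, homeobox factors of the uterine stroma that implantation requires, had the lowest E2 differences among the members. Hoxa10 differed by -1.89 after E2 and 0.62 after IGF1, and Hoxa11 by -1.84 and 0.59. Hoxa10 stood at 12.57, 12.38 and 12.43 after vehicle, 10.12, 10.11 and 9.94 after E2 and 13.01 and 13.05 after IGF1 in C57Bl6 mice. In Ex3aERKO littermates the Hoxa10 IGF1 arrays at 9.14, 9.25 and 9.68 overlapped the vehicle arrays at 9.10 and 9.32.

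**Figure D2:**
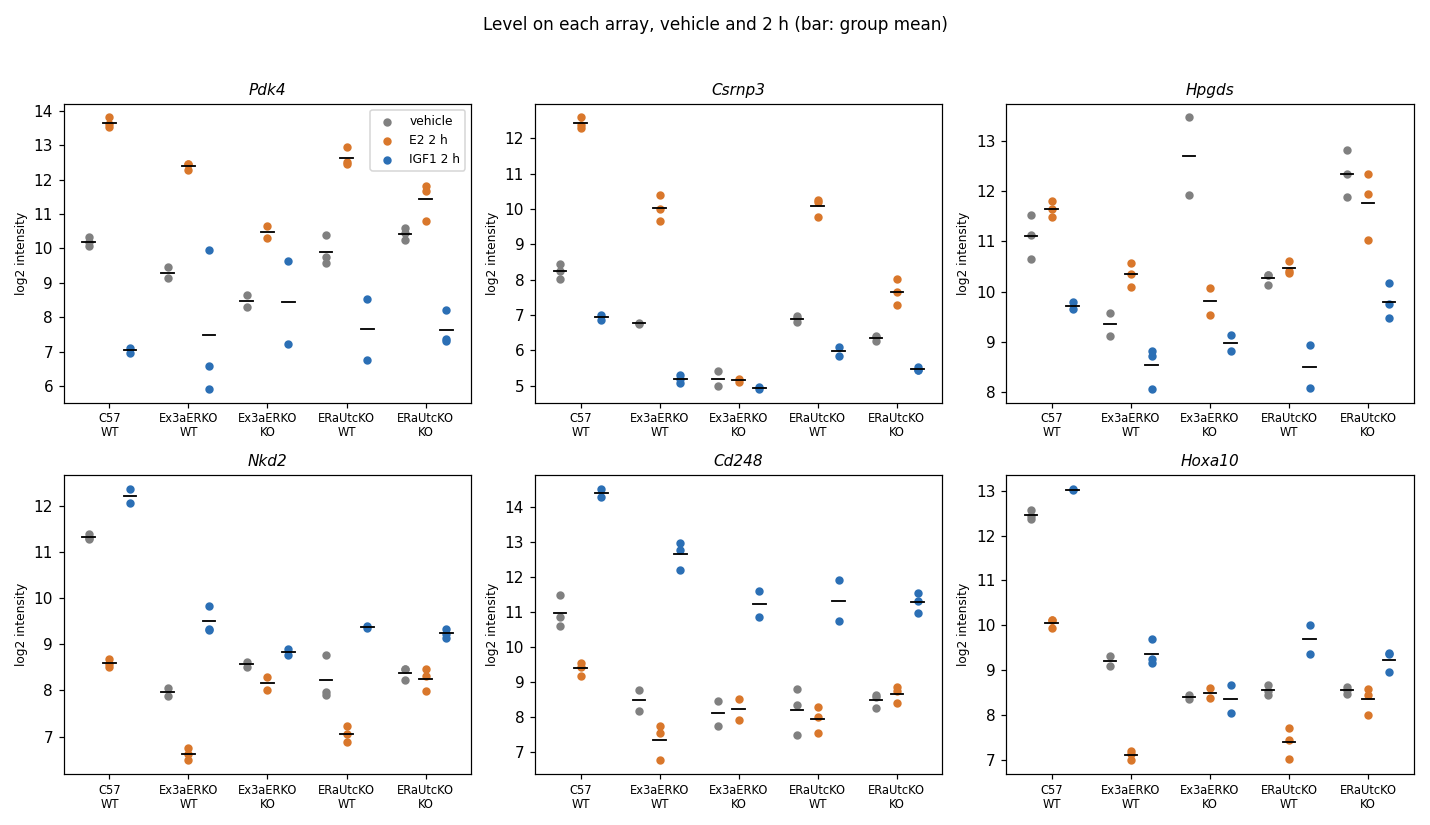
Level on each array (y axis, log2 intensity) of 6 members by mouse set and genotype (x axis) after vehicle (grey), E2 at 2 h (orange) and IGF1 at 2 h (blue), with bars at group means. In C57Bl6 mice Pdk4 stands near 10 after vehicle, above 13 after E2 and near 7 after IGF1. In Ex3aERKO knockouts Hoxa10 stands at 8.36 and 8.43 after vehicle and at 8.37 and 8.60 after E2.

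Igfbp5 and Igfbp4 are secreted proteins that bind IGF1 and alter its access to the receptor. Igfbp5 differed by -0.91 after E2 and 1.00 after IGF1, and Igfbp4 by -0.88 and 0.64. Igfbp5 in C57Bl6 mice stood at 12.66, 12.53 and 12.11 after vehicle, 11.47, 11.92 and 11.71 after E2 and 13.75 and 13.63 after IGF1. Igfbp4 stood at 13.57, 13.30 and 13.41, then 12.68, 12.60 and 12.64, then 14.15 and 14.10. Neither gene overlapped between treatments in that set. Their RefSeq promoter windows are shown as the binding proteins of the hormone given, Igfbp5 at chr1:72874816-72875115 (minus strand) and Igfbp4 at chr11:99040994-99041293 (plus strand). Capitals mark the TEAD site GGAATG in Igfbp5 (on the opposite strand) and the TATA box TATAAA in Igfbp4. The TEAD site was in 14.7% of all windows and in 6 and 8 member windows of the E2-up/IGF1-down and E2-down/IGF1-up genes, and the TATA box in 13.6% and in 4 and 6.
Igfbp5: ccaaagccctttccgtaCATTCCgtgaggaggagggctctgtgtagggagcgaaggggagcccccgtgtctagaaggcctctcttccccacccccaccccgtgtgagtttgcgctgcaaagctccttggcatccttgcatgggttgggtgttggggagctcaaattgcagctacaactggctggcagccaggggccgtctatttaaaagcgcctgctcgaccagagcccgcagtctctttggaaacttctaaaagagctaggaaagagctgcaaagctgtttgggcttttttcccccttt
Igfbp4: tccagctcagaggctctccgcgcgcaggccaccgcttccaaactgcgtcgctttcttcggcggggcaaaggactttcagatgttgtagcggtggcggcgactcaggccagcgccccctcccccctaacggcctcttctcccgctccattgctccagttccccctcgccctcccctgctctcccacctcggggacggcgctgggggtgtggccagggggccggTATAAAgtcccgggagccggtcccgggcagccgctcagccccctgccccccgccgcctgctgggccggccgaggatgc

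The other named genes of this direction have varied roles. Col1a1, the main fibrillar collagen chain, differed by -0.81 after E2 and 0.76 after IGF1, Postn (periostin, a matrix protein) by -0.67 and 0.81, Smtn (smoothelin, a smooth muscle cytoskeletal protein) by -0.52 and 0.84, and Adgra2, an adhesion receptor of blood vessels, by -1.15 and 0.89. Lsp1, an actin-binding protein first described in leukocytes, differed by -1.08 and 1.38, Tns2 (tensin, of focal adhesions) by -0.76 and 0.75 and Ptger3, a receptor for prostaglandin E2, by -0.73 and 0.73. The mesothelial marker Lrrn4 differed by -0.61 and 0.62, the stress-response protein Nupr1 by -1.25 and 0.73, the sorting nexin Snx18 by -0.72 and 0.92 and the desaturase Fads2b by -1.03 and 0.80.

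The mean of 8 stromal markers outside the members moved with E2 as well. In C57Bl6 mice it ran from 13.1 to 13.3 after vehicle, from 12.3 to 12.5 after E2 at 2 h and from 13.1 to 13.2 after IGF1 at 2 h. It was also lower after E2 than after vehicle on each array of Ex3aERKO littermates (11.02 to 11.11 against 12.1 to 12.2) and of ERaUtcKO littermates (11.5 to 11.7 against 12.1 to 12.3). In knockouts the E2 arrays lay in or near the vehicle range, at 11.28 to 11.30 against 11.32 to 11.79 in Ex3aERKO and at 11.9 to 12.2 against 11.9 to 12.1 in ERaUtcKO. The mean of 7 pericyte markers without Cd248 ran in C57Bl6 mice from 10.68 to 10.75 after vehicle, 9.86 to 9.92 after E2 and 10.67 to 10.69 after IGF1. Their part in the differences of the stromal and pericyte members was not tested. In whole uterus, fewer cells of a type and less RNA per cell cannot be told apart.

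In knockouts few of the members were called after E2 at 2 h. In ERaUtcKO knockouts 4 of the 89 genes were called by limma at an adjusted p under 0.05, while 0.491% of all genes were called (0.398% higher and 0.0929% lower). Csrnp3 rose by 1.30 ± 0.14 (SE, n = 3 against 3, adjusted p = 9.21e-06), Serpinb6b, a serine protease inhibitor, by 1.01 ± 0.15 (adjusted p = 0.000982) and Mir1a-1hg, the host RNA of a muscle microRNA, by 0.81 ± 0.17 (adjusted p = 0.0335). Dgkh, a diacylglycerol kinase, fell by 0.52 ± 0.11 (adjusted p = 0.0310). Csrnp3 stood at 6.42, 6.37 and 6.27 after vehicle and at 8.02, 7.29 and 7.65 after E2 there, without overlap, while its littermates stood at 6.96, 6.80 and 6.92 and at 9.79, 10.19 and 10.27. Leaving out 1 replicate of each group gave 1 or 2 calls in place of 4, and leaving out the arrays with high adipocyte markers gave 2.

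In Ex3aERKO knockouts 1 member was called after E2 at 2 h, against 0.149% of all genes (0.116% higher and 0.0332% lower). This was Hpgds, which fell by 2.89 ± 0.40 (SE, n = 2 against 2, limma adjusted p = 0.00417), although it was chosen as higher after E2 in wild types. Hpgds stood at 13.46 and 11.93 after vehicle and at 10.08 and 9.53 after E2 in these knockouts, without overlap, though the vehicle arrays themselves stood far apart. It stood at 9.12 and 9.58 after vehicle and at 10.10, 10.57 and 10.35 after E2 in their littermates. Without replicate 1, or without replicate 3, no member was called in Ex3aERKO knockouts after E2. At an unadjusted p under 0.05, 18 members passed in Ex3aERKO and 26 in ERaUtcKO, against 6.86% and 8.55% of all genes.

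The medians describe the same contrast between genotypes, without a test because the littermates helped to choose the members. For E2-up/IGF1-down genes the median E2 difference at 2 h was 0.03 in Ex3aERKO knockouts and 0.18 in ERaUtcKO knockouts, against 1.01 and 1.10 in their littermates. For E2-down/IGF1-up genes it was 0.11 and 0.01 in knockouts against -0.88 and -0.57 in littermates. The knockout response to E2 was lower than that of littermates in 47 of 49 E2-up/IGF1-down genes in Ex3aERKO and in 49 of 49 in ERaUtcKO. Irak3, the member with the largest wild-type E2 difference, differed from vehicle by 0.38 ± 0.27 (adjusted p = 0.904) and 0.45 ± 0.11 (adjusted p = 0.0645) in Ex3aERKO and ERaUtcKO knockouts. Hoxa10 differed by 0.09 ± 0.21 (adjusted p = 0.986) and -0.20 ± 0.19 (adjusted p = 0.870). Pdk4 differed by 2.00 ± 0.88 (adjusted p = 0.677) and 0.99 ± 0.35 (adjusted p = 0.337).

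**Figure D3:**
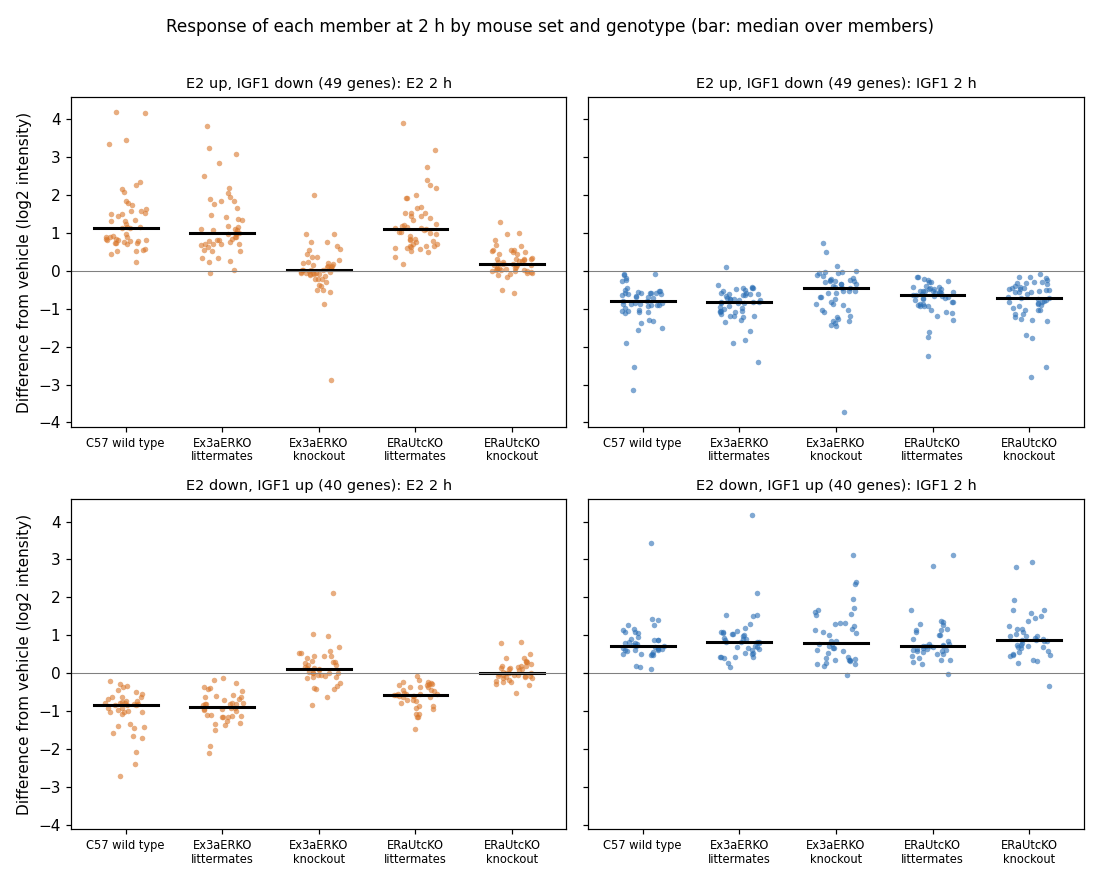
Difference from vehicle at 2 h (y axis, log2 intensity) of each member by mouse set and genotype (x axis), after E2 on the left and IGF1 on the right, with bars at the median over members. Medians after E2 lie between 0.01 and 0.18 in knockouts, and medians after IGF1 keep the wild-type sign in both knockout lines.

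The response to IGF1 at 2 h was measured in knockout arrays that the rule did not use. In ERaUtcKO knockouts 37 of 49 E2-up/IGF1-down genes fell (16.2% of all genes fell) and 33 of 40 E2-down/IGF1-up genes rose (13.1% of all genes rose). None was called against its wild-type direction by limma. In Ex3aERKO knockouts, with 2 arrays in each of these groups, 19 of 49 fell (7.09% of all genes) and 16 of 40 rose (8.61%), again with none called the other way. Of the fallen genes, 17 were called in both lines, which is 89.5% of the Ex3aERKO and 45.9% of the ERaUtcKO list. Of the risen genes, 16 were called in both, which is 100% and 48.5%. The median difference was -0.45 and 0.81 in Ex3aERKO knockouts for the E2-up/IGF1-down and E2-down/IGF1-up genes and -0.72 and 0.87 in ERaUtcKO knockouts, against medians over all genes of 0.01 and -0.04 in the respective line. Without replicate 3, or without replicate 2, of each group the Ex3aERKO count of 35 became 16 and 21.

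Cd248 rose by 3.13 ± 0.37 (adjusted p = 1.21e-05) in Ex3aERKO knockouts and by 2.79 ± 0.27 (adjusted p = 2.76e-08) in ERaUtcKO knockouts. It stood at 7.76 and 8.46 after vehicle and 11.62 and 10.86 after IGF1 in the first line, and at 8.27, 8.64 and 8.57 and then 10.98, 11.55 and 11.32 in the other, without overlap. S100a7a, a calcium-binding protein of the S100 family, rose by 2.36 ± 0.24 (adjusted p = 2.46e-06) and 2.94 ± 0.19 (adjusted p = 4.52e-11). Lsp1 rose by 1.96 ± 0.21 (adjusted p = 4.51e-06) and 1.92 ± 0.14 (adjusted p = 1.67e-10). Postn rose by 2.41 ± 0.75 (adjusted p = 0.0339) and 0.84 ± 0.28 (adjusted p = 0.0265). Smtn, Car2 and Nkd1 also rose in both lines, Nkd1 by 1.53 ± 0.19 (adjusted p = 2.15e-05) and 1.44 ± 0.14 (adjusted p = 2.62e-08). Nkd2, Igfbp4 and Hoxa10 were called in ERaUtcKO knockouts, at 0.85, 0.98 and 0.68, but not in Ex3aERKO knockouts, at 0.27, 0.67 and -0.05. The difference between the lines for these genes did not pass the test reported below for the lines.

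Among the genes that fell, Hpgds had the largest difference in Ex3aERKO knockouts, -3.72 ± 0.40 (adjusted p = 4.51e-06), and -2.54 ± 0.29 (adjusted p = 3.01e-07) in ERaUtcKO knockouts. Mettl7a1 fell by 1.45 ± 0.28 (adjusted p = 0.00135) and 1.77 ± 0.18 (adjusted p = 4.78e-08), Nmur2 by 1.27 ± 0.41 (adjusted p = 0.0403) and 1.31 ± 0.25 (adjusted p = 0.000220) and Foxo1 by 0.53 ± 0.17 (adjusted p = 0.0366) and 0.62 ± 0.12 (adjusted p = 0.000315). Angpt2 fell by 0.81 ± 0.18 and 0.72 ± 0.12. Pdk4 fell by 2.80 ± 0.35 (adjusted p = 1.05e-06) in ERaUtcKO knockouts and differed by -0.04 ± 0.88 (adjusted p = 0.989) in Ex3aERKO knockouts. Its Ex3aERKO arrays stood at 8.31 and 8.64 after vehicle and at 7.23 and 9.64 after IGF1. The adipocyte mean was 9.84 on the array at 7.23 and 10.3 on the array at 9.64. On the vehicle arrays that mean ran from 7.14 to 9.14, and its part in the Pdk4 values was not tested. Csrnp3, whose level was lower in Ex3aERKO knockouts than in littermates under vehicle (difference -1.56), stood at 4.98 and 5.42 after vehicle and 4.90 and 4.97 after IGF1 there.

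The direct comparison of E2 with IGF1 at 2 h in knockouts uses no vehicle array, though it shares its IGF1 and E2 arrays with the comparisons above. In ERaUtcKO knockouts 43 of 49 E2-up/IGF1-down genes were higher after E2 than after IGF1 (13.4% of all genes) and 31 of 40 E2-down/IGF1-up genes were lower (11.1%). In Ex3aERKO knockouts the counts were 20 of 49 (5.71% of all genes) and 15 of 40 (6.61%). No member was called in the opposite direction by limma in either line. All 20 and all 15 Ex3aERKO calls were also made in ERaUtcKO knockouts, where they are 46.5% and 48.4% of the lists. In Ex3aERKO knockouts Nmur2 differed by 2.23 ± 0.41 (adjusted p = 0.000964), the secreted protease Htra3 by 2.08 ± 0.25 (adjusted p = 1.80e-05), Peli2 by 1.62 ± 0.22 (adjusted p = 5.57e-05) and Cd248 by -3.01 ± 0.37 (adjusted p = 2.30e-05). In ERaUtcKO knockouts Pdk4 differed by 3.79 ± 0.35 (adjusted p = 1.78e-08), Mettl7a1 by 2.33 ± 0.18 (adjusted p = 1.00e-09) and S100a7a by -2.55 ± 0.19 (adjusted p = 7.11e-10). Without replicate 3 of each group the Ex3aERKO count of 35 became 16.

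The knockout lines were also set against each other with knockout arrays alone, a test chosen after seeing the data. For the response to E2 at 2 h, 1 member was called, against 0.0166% of all genes (0.00995% higher and 0.00664% lower in ERaUtcKO). Serpinb6b responded more in ERaUtcKO than in Ex3aERKO knockouts, by 1.52 ± 0.22 (SE, limma adjusted p = 0.0160). Serpinb6b stood at 7.64, 7.76 and 7.69 after vehicle and 8.58, 8.70 and 8.83 after E2 in ERaUtcKO knockouts. In Ex3aERKO knockouts it stood at 6.90 and 7.60 after vehicle and at 6.72 and 6.75 after E2. The call was lost without replicate 1 (adjusted p = 0.458), without replicate 3 (0.445) and without the arrays with high adipocyte markers (0.103). For the response to IGF1 at 2 h no member was called by limma, with and without a trended and robust prior, against 0.00664% of all genes (0.00332% higher and 0.00332% lower), and 15 members had an unadjusted p under 0.05.

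Under vehicle the knockouts differed from their littermates in some members, given here without a test. Akr1c14 differed by -3.57 in Ex3aERKO and -2.08 in ERaUtcKO, with 5.44 and 5.63 in Ex3aERKO knockouts against 9.02 and 9.19 in littermates. Hpgds differed by 3.34 and 2.08 in the other direction, with 12.33, 11.87 and 12.82 in ERaUtcKO knockouts against 10.34, 10.12 and 10.33 in littermates. Fads2b differed by 2.15 and 1.55. Over the members the median difference was -0.36 for E2-up/IGF1-down genes and -0.25 for E2-down/IGF1-up genes in Ex3aERKO and -0.07 and 0.10 in ERaUtcKO.

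By 24 h few members in wild types still lay past 0.5 from vehicle for both hormones in the directions of 2 h. These differences from vehicle use the vehicle arrays of the rule and are described only. Of the 49 E2-up/IGF1-down genes, 20 lay at or below -0.5 after E2 (10.1% of all genes) and 6 at or above 0.5 (14.5% of all genes). After IGF1 21 lay at or below -0.5 (4.26%) and 1 at or above 0.5 (8.63%). In 14 genes both hormones lay at or below -0.5, among them Pdk4 (-1.30 after E2 and -1.25 after IGF1), Mettl7a1 (-1.05 and -0.9979), Nmur2 (-1.39 and -1.70) and Hpgds (-2.33 and -1.74). Akr1c14 (1.31 and -1.17) and Ogn (0.52 and -0.71) were the only members past 0.5 in the directions of 2 h for both hormones. Of the 40 E2-down/IGF1-up genes, 11 lay at or above 0.5 after E2 and 7 at or below -0.5, with 15 and 3 after IGF1. In 8 genes both hormones lay at or above 0.5, among them Igfbp5 (2.54 and 4.02), Col1a1 (3.15 and 2.27), Cd248 (1.74 and 2.18) and Emp3 (1.81 and 1.95). The share of all genes past 0.5 in 1 direction for both hormones was not counted, and both hormones share the vehicle arrays. Pdk4 in C57Bl6 mice stood at 8.81, 8.94 and 8.96 after E2 and 8.92, 8.53 and 8.84 after IGF1 at 24 h, all below the vehicle arrays.

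The test that the rule leaves free at 24 h is E2 against IGF1 in wild types. Of the E2-up/IGF1-down genes, 11 were higher after E2 and 13 lower, against 15.3% and 12.9% of all genes (28.1% in either direction). Of the E2-down/IGF1-up genes 4 were higher after E2 (10%) and 21 lower (52.5%), so most of these calls kept the order of 2 h. Of these 40 genes, 34 lay below 0 and 6 above. Of the 49 E2-up/IGF1-down genes, 19 lay above 0 and 30 below. In the sets taken alone, 46 members were called in C57Bl6 mice (12.1% of all genes), 29 in Ex3aERKO littermates (19.3%) and 30 in ERaUtcKO littermates (10.5%), against 49 over the sets. Car2, a carbonic anhydrase, was higher after E2 by 4.29 ± 0.13 (SE, 9 arrays against 9, limma adjusted p = 2.44e-26), although it was chosen as lower after E2 at 2 h. Car2 stood at 16.53, 16.52 and 16.46 after E2 and 12.84, 12.34 and 12.71 after IGF1 in C57Bl6 mice at 24 h, without overlap. Gm5424 was higher after E2 by 2.78 ± 0.25 (adjusted p = 2.22e-11) and Akr1c14 by 2.48 ± 0.13 (adjusted p = 1.65e-18). Il4ra (1.18), Ogn (1.22) and Foxo1 (0.27) were also higher. The mean of 11 epithelial markers stood at 11.6 to 11.7 after E2 and at 9.89 to 10.2 after IGF1 in C57Bl6 mice at 24 h, and its part in these differences was not tested.

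Igfbp5 was lower after E2 than after IGF1 at 24 h (-1.48 ± 0.18, adjusted p = 3.02e-08), and both hormones stood above vehicle in C57Bl6 mice. It stood at 14.45, 14.58 and 14.35 after E2 and 16.16, 16.27 and 15.97 after IGF1, against 12.1 to 12.7 after vehicle. Ptger3 differed by -1.36 ± 0.19 (adjusted p = 3.96e-07), Lrrn4 by -0.98 ± 0.23 (adjusted p = 0.00116), Nkd2 by -0.66 ± 0.15 (adjusted p = 0.000780) and Nkd1 by -0.60 ± 0.11 (adjusted p = 2.81e-05). Tgfb2, Angpt2 and Hpgds, chosen as E2-up/IGF1-down, were lower after E2 as well, at -0.39, -0.29 and -0.59. Col1a1 was higher after E2, by 0.88 ± 0.17 (adjusted p = 9.59e-05). Pdk4 (-0.05 ± 0.33, adjusted p = 0.943), Hoxa10 (-0.15 ± 0.14, adjusted p = 0.501) and Cd248 (-0.45 ± 0.25, adjusted p = 0.211) were not called.

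**Figure D4:**
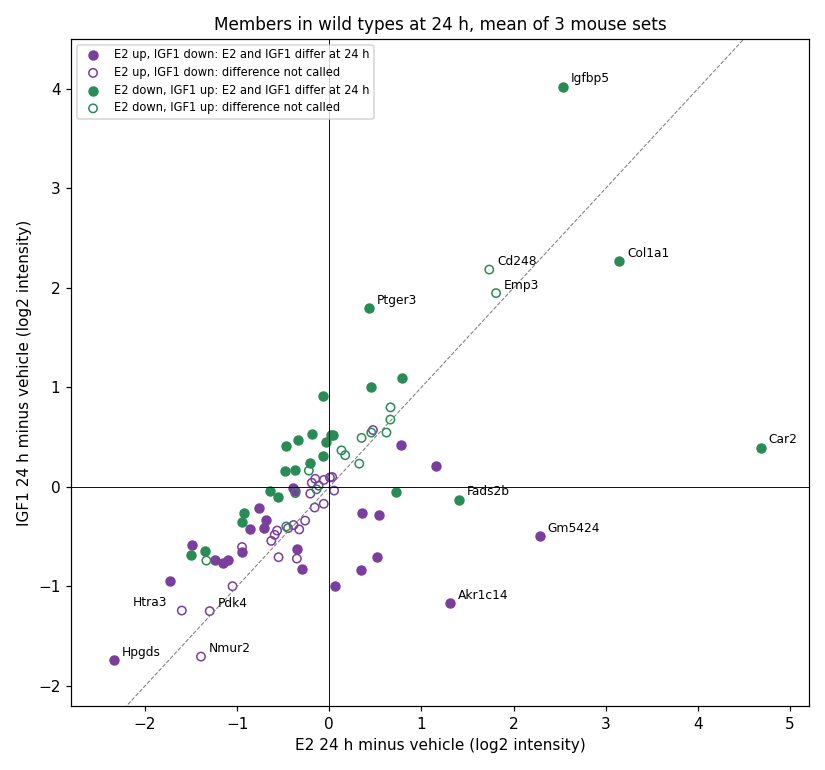
Difference from vehicle at 24 h in wild types, mean of 3 sets, after E2 (x axis) and IGF1 (y axis), both in log2 intensity, for the 89 members. Purple marks E2-up/IGF1-down and green E2-down/IGF1-up genes, filled where limma called E2 and IGF1 different at 24 h. Car2 lies far to the right at 4.68, and Igfbp5 at the top at 4.02. The dashed line marks equal differences.

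In knockouts at 24 h, 34 of 89 members were called after IGF1 in Ex3aERKO (18.6% of all genes) and 52 of 89 in ERaUtcKO. After E2 limma called 0 of 89 members and 0 of 30142 genes in each line (0% of all genes), and 0 members with a trended and robust prior. At an unadjusted p under 0.05, 6 members passed in Ex3aERKO and 2 in ERaUtcKO, of 4166 and 1151 genes. After IGF1, 24 E2-up/IGF1-down genes were lower in ERaUtcKO knockouts (15.5% of all genes) and 24 E2-down/IGF1-up genes were higher (16.9%), with 32.4% of all genes called in either direction. The ERaUtcKO split of 25 higher and 27 lower members became 33 and 15 with each array centred on its median and 30 and 21 after quantile normalization. In Ex3aERKO knockouts the counts were 15 (6.86%) and 15 (11.7%). Without replicate 3 of each group the Ex3aERKO total of 34 became 14. A few members went the other way at 24 h. Tns2, S100a7a and Dgkh fell in both lines, S100a7a by 0.75 ± 0.22 (adjusted p = 0.0214) and 0.74 ± 0.19 (adjusted p = 0.00408), after its rise at 2 h. Fahd1, a mitochondrial oxaloacetate decarboxylase, rose in Ex3aERKO knockouts (1.00 ± 0.19, adjusted p = 0.00103) and Tmem98 rose in ERaUtcKO knockouts (0.70 ± 0.14, adjusted p = 0.000495).

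Hpgds fell by 5.89 ± 0.37 (adjusted p = 4.41e-08) in Ex3aERKO knockouts and by 4.70 ± 0.29 (adjusted p = 1.54e-10) in ERaUtcKO knockouts after 24 h of IGF1. It stood at 6.97, 6.65 and 6.78 in the former, where vehicle arrays stood at 13.46 and 11.93, and at 7.95, 7.67 and 7.30 in the latter, where vehicle arrays stood at 12.33, 11.87 and 12.82. Igfbp5 rose by 3.89 ± 0.47 (adjusted p = 2.25e-05) and 4.03 ± 0.30 (adjusted p = 1.49e-09), Igfbp4 by 2.41 ± 0.23 (adjusted p = 2.96e-06) and 2.08 ± 0.17 (adjusted p = 5.02e-09) and Emp3, a small membrane protein, by 2.21 ± 0.33 (adjusted p = 0.000162) and 2.53 ± 0.20 (adjusted p = 2.97e-09). Col1a1 rose by 1.58 ± 0.22 and 1.84 ± 0.35, Hoxa10 by 0.66 ± 0.19 and 1.04 ± 0.19, and Hoxa11 by 1.33 ± 0.29 and 1.56 ± 0.28. The noncoding RNA Phxr4 fell by 1.97 ± 0.39 and 1.80 ± 0.23, and the pseudogene Gm13217 also fell, with differences of -1.47 ± 0.17 and -1.07 ± 0.20. Of the 16 E2-up/IGF1-down genes called in Ex3aERKO knockouts, 12 (75%) were called in the same direction in ERaUtcKO knockouts, where they are 48.0% of the list. For E2-down/IGF1-up genes the overlap was 17, which is 94.4% and 63.0%.

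**Figure D5:**
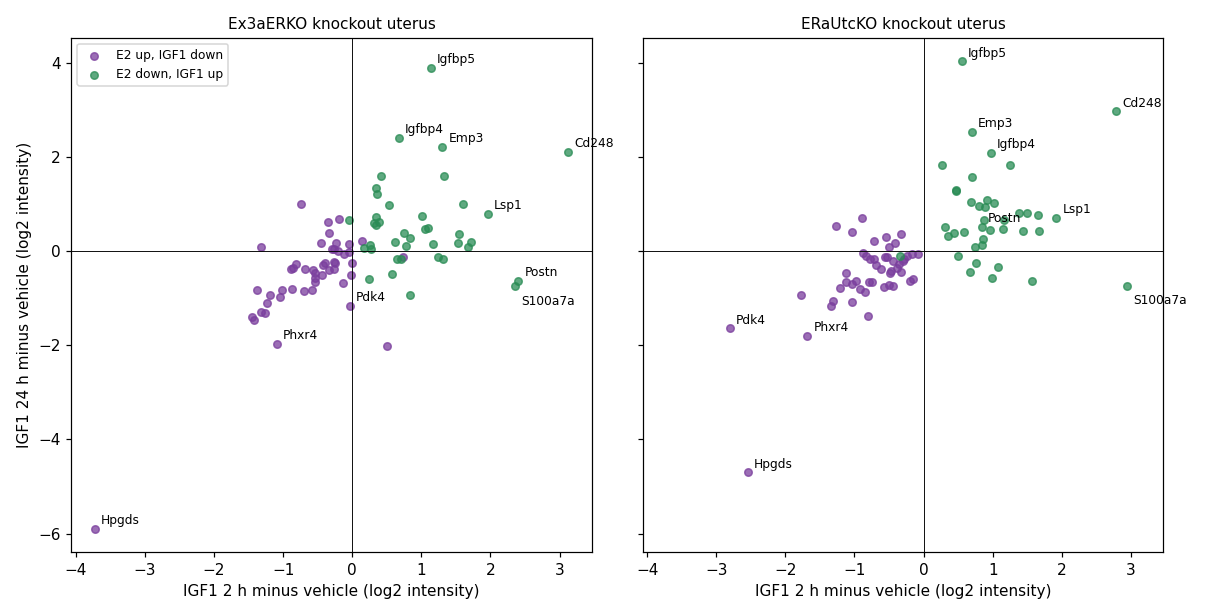
Difference from vehicle after IGF1 at 2 h (x axis) and 24 h (y axis), both in log2 intensity, for each of the 89 members in Ex3aERKO knockouts (left) and ERaUtcKO knockouts (right). Both axes share the vehicle arrays. Hpgds lies lowest at -5.89 and -4.70, Igfbp5 highest at 3.89 and 4.03, and S100a7a lies to the right at 2 h and below 0 at 24 h.

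The 42 gene lists were written from textbook knowledge, but with earlier results of these data known. Of these lists 13 held a member, and 17 members were on a list. The other genes of those lists are described here, from which genes opposed past 0.5 had been taken out as members. Their calls at 2 h in wild types come from the same comparisons as the rule and are a description, not a test. Of 21 other FOXO target genes, whose level FOXO factors raise, 4 rose and 16 fell after E2 at 2 h in wild types (17.2% and 22.8% of all genes), and 1 rose and 16 fell after IGF1 (16.9% and 19% of all genes). In either direction limma called 40% of all genes after E2 and 35.9% after IGF1. The median differences were -0.59 and -0.93. Fbxo32, a ubiquitin ligase of muscle atrophy, fell, with differences of -2.45 ± 0.23 after E2 and -5.02 ± 0.24 after IGF1. Irs2, an insulin receptor substrate, fell too, with differences of -2.29 ± 0.19 and -2.62 ± 0.20. The members Pdk4 and Foxo1 of this list had the opposite E2 sign to those 16. In knockouts after IGF1 at 2 h, 13 of the 21 fell and 1 rose in Ex3aERKO (7.09% and 8.61% of all genes). In ERaUtcKO 14 of the 21 fell and 2 rose (16.2% and 13.1% of all genes). After E2 their median difference was 0.13 in Ex3aERKO and -0.06 in ERaUtcKO knockouts.

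For these lists and those below, the shares of all genes at 2 h in wild types were 17.2% higher and 22.8% lower after E2. After IGF1 they were 16.9% and 19%. Of 40 other WNT pathway genes, 6 rose and 20 fell after E2 in wild types, and 4 rose and 11 fell after IGF1. Of 20 other IGF and insulin axis genes, 3 rose and 11 fell after E2, and 5 rose and 7 fell after IGF1. Of 16 other homeobox genes, 0 rose and 9 fell after E2, and 1 rose and 6 fell after IGF1. Of 8 other stromal markers, 1 rose and 7 fell after E2 (median -0.97), and 1 rose and 2 fell after IGF1 (median -0.20). Of 15 other prostaglandin genes, 6 rose and 7 fell after E2, and 7 rose and 4 fell after IGF1. Of 15 other glucocorticoid-responsive genes, the list that also holds Pdk4, 8 rose and 2 fell after E2 and 9 rose and 1 fell after IGF1. After E2 at 2 h in knockouts, 4 of these 15 were called higher in Ex3aERKO (0.116% of all genes) and 6 in ERaUtcKO (0.398%), with 0 lower. After IGF1 at 2 h in knockouts, 5 of the 15 were called higher and 0 lower in Ex3aERKO (8.61% and 7.09% of all genes). In ERaUtcKO 10 were called higher and 1 lower after IGF1 (13.1% and 16.2% of all genes).

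Of the remaining lists with a member, 11 of 37 other TGF-beta, activin and BMP genes rose and 11 fell after E2, with 13 and 7 after IGF1. Angiogenic factors gave 11 and 10 of 26 after E2 and 7 and 9 after IGF1. Interferon-stimulated genes gave 1 and 9 of 20 after E2 and 0 and 5 after IGF1, smooth muscle markers 4 and 2 of 9 and then 5 and 3, pericyte markers 1 and 5 of 7 and then 2 and 3, and mesothelial markers 1 and 0 of 5 for each hormone. At 24 h, 13 of the 20 interferon-stimulated genes were higher after E2 than after IGF1 and 0 lower (15.3% and 12.9% of all genes). The member Usp18, which removes the ubiquitin-like protein ISG15, was higher as well (0.61 ± 0.22, limma adjusted p = 0.0362).

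Some members are not independent of each other. Mettl7a1 and Mettl7a3 are neighbouring genes, and across the 68 arrays Mettl7a1 correlated with Mettl7a3 at r = 0.87 and with the pseudogenes Gm6054 at 0.95, Gm12727 at 0.92, Gm5612 at 0.88, Gm13217 at 0.85 and Gm6055 at 0.80. These arrays share treatments, and whether the probe sets read the same transcript is uncertain. Serpinb6b and Serpinb9, Hoxa10 and Hoxa11, and Gm6055 and Peli2 are also next to each other in the RefSeq gene order, with 0 genes between them, and each pair has the same direction.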

How the data were processed

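Uterine RNA was extracted with Trizol and RNeasy columns and labelled with the Affymetrix WT Plus kit, per the labels' protocols. The authors deposited log2 intensity values of 72688 probe sets on 68 arrays and had left out replicates that stood apart in a principal component plot, per the labels. Their normalization was not given in the sources used here. The number of arrays limits the precision.

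Of the probe sets, 30604 carried 1 gene symbol, 2146 several and 39938 were outside the annotation used. The probe set with the highest mean stood for a gene, which gave 30142 genes. Members were taken at a threshold of 0.5 as described above. Differences between groups were fitted on the deposited log2 values with limma 3.58.1 (lmFit, eBayes) in R 4.3.3, in 1 fit for the 42 wild-type arrays with mouse set as a term and 1 fit for each knockout line with its littermates. Benjamini-Hochberg adjustment ran over all genes, and an adjusted p under 0.05 was called. There were 11 tested comparisons, and 2 more between the knockout lines on knockout arrays alone. Wild-type comparisons with vehicle were also fitted, and their calls at 2 h are given for list genes as a description only. Tables were made in Python 3.11.15 with pandas 2.3.3 and numpy 2.4.6. The fits were tested on simulated data.

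The members and all gene lists were chosen with earlier results of these data known. In each direction up to 12 protein-coding members with signs opposed in each set were named, ranked by the smaller of both absolute 2 h differences. Every member on a list was also named, as were the 3 largest called rises and falls of each tested comparison, 44 genes in all. Esr1 was read as a check of the labels, and other members are named where a count or description singles them out. Alternatives were array centring, quantile normalization, a level filter, a trended and robust prior, a replicate block, single sets, knockout arrays alone, leaving out replicates and, chosen after seeing the data, leaving out arrays with a mean adipocyte marker level over 10.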

Additional observations from a re-analysis of the deposited data

Results flagged for a closer look

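The E2 response of Serpinb6b at 2 h differed between the knockout lines. The response in ERaUtcKO minus that in Ex3aERKO knockouts was 1.52 ± 0.22 (SE, limma adjusted p = 0.0160), from a rise of 1.01 ± 0.15 and a difference of -0.51 ± 0.17. The adjusted p was 0.0246 with each array centred on its median and 0.0433 after quantile normalization. Without replicate 2 the difference was 1.91 (adjusted p = 0.0491), without replicate 1 it was 1.54 (0.458) and without replicate 3 it was 1.12 (0.445). Without the arrays with high adipocyte markers it was 1.46 (0.103).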

How the results depend on the processing

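The count of 89 members became 178 at a threshold of 0.4, 38 at 0.7, 8 at 1 and 34 where both differences had to reach 0.5 in each set. It ran from 98 to 122 without 1 replicate of each group, with 75 to 80 of the 89 kept, and was 83 with each array centred on its median, with 63 kept, and 89 after quantile normalization, with 78 kept. Members called for E2 against IGF1 at 24 h in wild types were 49, with 29 in the Ex3aERKO set alone and 30 in the ERaUtcKO set alone. In knockouts after E2 at 2 h, the Ex3aERKO count of 1 ran from 0 to 2 without 1 replicate, and was 0 with knockout arrays alone and 2 without the arrays with high adipocyte markers. The ERaUtcKO count of 4 ran from 1 to 2 without 1 replicate, and was 2 with knockout arrays alone and 2 without those adipocyte arrays. Without 1 replicate the Ex3aERKO counts ran from 16 to 24 for IGF1 at 2 h (main 35), from 14 to 30 for IGF1 at 24 h (main 34) and from 16 to 30 for E2 against IGF1 (main 35). The count for the difference between lines after E2 (main 1) ran from 0 to 1 and was 0 without the adipocyte arrays, and after IGF1 (main 0) it ran from 0 to 1. Where this left a group with 1 array, the lone array was assumed to vary like the others. The cause of these changes was not tested. Same-numbered arrays deviated from their group means with a mean correlation of -0.0803, -0.00181 and -0.00889 in the C57Bl6, Ex3aERKO and ERaUtcKO sets. Single pairs ran from -0.591 to 0.498, from -0.285 to 0.41 and from -0.328 to 0.223. The main fits treat these arrays as unpaired, and whether a shared number marks a batch cannot be told from these means. With a replicate block the counts were 46 in wild types at 24 h, and 33, 32 and 34 in Ex3aERKO and 70, 50 and 73 in ERaUtcKO knockouts for IGF1 at 2 h, IGF1 at 24 h and E2 against IGF1. The counts after E2 at 2 h stayed at 1 and 4 with the block. For single genes 202 called values were followed, which are only a part of all calls (30 of the 49 in wild types at 24 h). None of the 202 changed direction under the alternatives run. The call was lost by 17 with centring, 8 with quantile normalization, 10 with the block, 13 without the adipocyte arrays and 41 to 56 without 1 replicate. With knockout arrays alone 21 of 172 were lost. In wild types at 24 h, 7 of 30 were lost in the C57Bl6 set alone and 12 of 30 in each littermate set alone. Signal near background limits low genes, and 2 arrays a group limit Ex3aERKO knockouts.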
